A study of Mus musculus with 12 samples.

Results

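The promoters of 46 genes of the unfolded protein response and of protein folding in the endoplasmic reticulum (ER) were examined in Min6, an insulin-secreting mouse line of insulinoma origin that stands in for β cells. The 46 were chosen by name from their known roles, with earlier results of these data known. They are compared with the other 21682 of 21728 protein-coding genes on chromosomes 1 to 19 and X. All cells were grown under the same conditions and received for 48 hours either DMSO, the solvent control, or 20 µM of the JNK inhibitor SP600125 (JNKi), JNK being the kinase family that phosphorylates cJun. CUT&RUN, in which a nuclease tethered to an antibody releases the DNA it is bound to, was run with 550000 cells per reaction and antibodies against the transcription factor cJun, the promoter mark H3K4me3 or, as negative control, IgG, with 2 biological replicates in each of 6 groups. The cJun and H3K4me3 peaks were analysed as 4 lists, each holding the peaks called in both replicates of its group. SP600125 was the only inhibitor and Min6 the only line, so an effect of JNK cannot be told apart from other effects of the compound.

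Secretory proteins fold in the ER, and unfolded chains that accumulate there activate sensors in its membrane, the kinases PERK (gene Eif2ak3) and IRE1 (Ern1) and the transcription factor precursor ATF6. IRE1 splices the Xbp1 transcript, ATF6 is cleaved by the Golgi proteases encoded by Mbtps1 and Mbtps2, and PERK phosphorylates eIF2α, which favours translation of ATF4. The resulting factors raise transcription of chaperones, disulfide enzymes and ER-associated degradation genes, and β cells rely on this response because of their load of proinsulin. JNK is itself activated downstream of IRE1, and H3K4me3 marks the promoters of transcribed or poised genes.

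Elements of the ATF6 and ATF4 arms of the response were found in a larger share of these promoters than of other promoters, and they are shown because they are the known recognition sequences of these arms. In the 300 bases before the transcription start site (TSS) of the representative transcript, an ER stress response element (ERSE, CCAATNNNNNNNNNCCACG, the element of ATF6 with NF-Y) was found in 9 of the 46 genes. These were Calr, Canx, Creld2, Derl3, Dnajc3, Ero1lb, Hsp90b1, Pdia6 and Syvn1, which make 19.6% of the list, and the share in all other genes was 0.0784%. The related ERSE-II (ATTGGNCCACG) was found in Dnajb11, Herpud1, Hyou1 and Manf, or 8.70%, compared with 0.0553% of other genes. Either element was present in 13 of the 46 (28.3%) and in 29 other genes (0.134%). None of 72 other genes of the same pathways had an ERSE, and 1 had an ERSE-II. This second list was also named from known roles with earlier results known. Many of the 46 genes are known as targets of the response because of such elements, so these shares describe the list. A match is a string of letters on either strand and no evidence of binding.

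The promoters of 6 of the 9 genes with an ERSE are shown 5′ to 3′ in the direction of transcription, from GRCm38 as distributed by RefSeq, with each match in capitals.
Hsp90b1, chr10:86705521-86705668, minus strand: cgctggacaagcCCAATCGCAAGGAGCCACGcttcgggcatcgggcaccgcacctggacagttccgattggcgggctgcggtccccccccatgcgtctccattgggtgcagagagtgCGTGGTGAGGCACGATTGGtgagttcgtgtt
Calr, chr8:84847063-84847105, minus strand: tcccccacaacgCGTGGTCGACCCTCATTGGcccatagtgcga
Canx, chr11:50325788-50325830, minus strand: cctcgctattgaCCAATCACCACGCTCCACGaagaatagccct
Dnajc3, chr14:118937815-118937857, plus strand: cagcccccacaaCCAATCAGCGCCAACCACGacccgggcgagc
Ero1lb, chr13:12565670-12565712, plus strand: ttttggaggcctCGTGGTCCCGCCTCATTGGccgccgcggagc
Derl3, chr10:75893128-75893272, plus strand: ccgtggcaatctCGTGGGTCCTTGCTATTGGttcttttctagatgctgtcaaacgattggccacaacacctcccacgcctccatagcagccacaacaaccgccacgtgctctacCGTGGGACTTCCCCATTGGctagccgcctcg
Hsp90b1, which encodes the chaperone GRP94, and Derl3, a Derlin of the ER degradation channel, each carried 2 complete elements. In Hsp90b1 they lie on opposite strands, the CCAAT end leading in the distal copy. In Calr, Ero1lb and Derl3 the element is on the minus strand of the gene and therefore reads as CGTGG followed by ATTGG.

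The ERSE-II promoters of Herpud1 (a membrane component of the degradation complex), Hyou1 (the chaperone ORP150) and Manf (a secreted ER stress factor) are given in the same way, and the capitals in Herpud1 also mark a CARE.
Herpud1, chr8:94386305-94386399, plus strand: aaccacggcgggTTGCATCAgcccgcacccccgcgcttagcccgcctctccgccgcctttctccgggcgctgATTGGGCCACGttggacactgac
Hyou1, chr9:44379352-44379487, plus strand: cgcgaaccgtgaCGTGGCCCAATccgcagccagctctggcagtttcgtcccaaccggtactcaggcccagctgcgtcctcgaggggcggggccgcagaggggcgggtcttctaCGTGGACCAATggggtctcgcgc
Manf, chr9:106892027-106892061, minus strand: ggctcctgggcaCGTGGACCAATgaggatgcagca
Hyou1 carried 2 copies, and the upstream copy overlaps the only match to the XBP1 element UPRE (TGACGTGG) among the 46 genes. The UPRE letters stood before the TSS of 0.636% of other genes and of 4 of the 72 other pathway genes (5.56%), compared with 2.17% of the 46.

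The ATF4 element CARE (TGATGNAA) was found in 6 of the 46 promoters (13.0%), those of Chac1, Ddit3, Herpud1, Ppp1r15b, Sesn2 and Trib3, compared with 3.62% of all other genes and 2.12% of those with promoter H3K4me3. Apart from Herpud1, these are genes of the PERK and ATF4 arm. Ddit3 encodes CHOP, Chac1 a glutathione-degrading enzyme, Sesn2 a sestrin, Trib3 a pseudokinase and Ppp1r15b the constitutive eIF2α phosphatase subunit. In Ddit3 the capitals mark the CARE and, closer to the TSS, an AP-1 element (TGACTCA or TGAGTCA), the site bound by dimers of cJun.
Ddit3, chr10:127290480-127290569, plus strand: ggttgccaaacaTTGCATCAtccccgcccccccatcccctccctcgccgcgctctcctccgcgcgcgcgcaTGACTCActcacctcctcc
Chac1, chr2:119351037-119351068, plus strand: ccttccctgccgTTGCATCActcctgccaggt
Sesn2, chr4:132510741-132510772, minus strand: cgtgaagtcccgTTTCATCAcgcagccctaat
AP-1 letters were present in 4 of the 46 promoters (8.70%), those of Ddit3, Hspa5, Mbtps2 and Sec61b, compared with 4.50% of other genes and 3.16% of those with promoter H3K4me3. The cAMP element CRE (TGACGTCA) was found in Ppp1r15a alone (2.17%, compared with 2.16%). The 46 promoters had a median GC content of 61.0%, with 54.0% in all other genes and 58.7% in those with promoter H3K4me3. Their median CpG observed-over-expected ratio was 0.780, compared with 0.504 and 0.703.

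**Figure D1:**
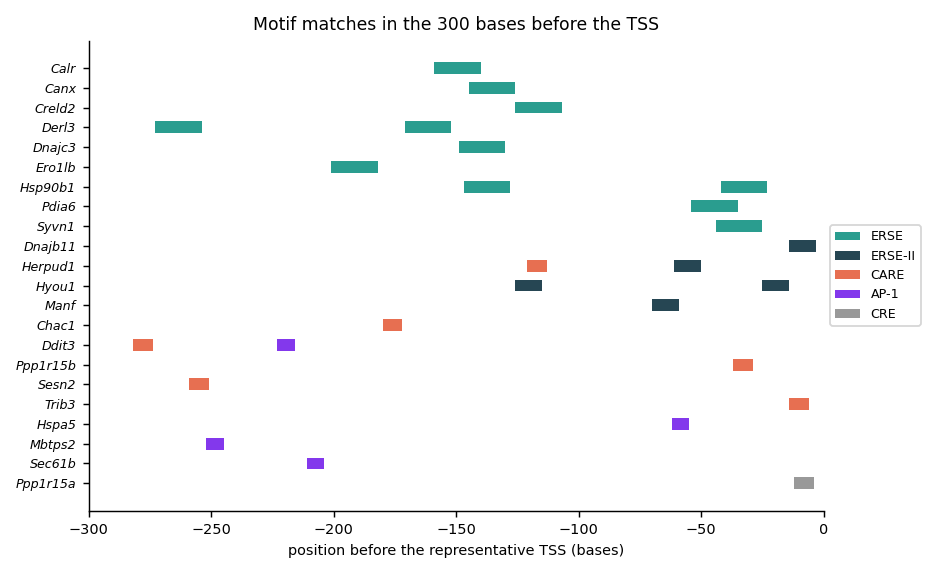
Position of each motif match in the 300 bases before the representative TSS (x axis, bases, 0 at the TSS) for the 22 of 46 genes with a match to ERSE, ERSE-II, CARE, AP-1 or CRE. The UPRE match of Hyou1, which overlaps its upstream ERSE-II, is not drawn.

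All 46 genes had an H3K4me3 peak within 3 kb of a TSS under DMSO and all 46 under JNKi. The mark was found at 60.5% of other protein-coding genes under DMSO and 59.9% under JNKi, and at 72 and 71 of the 72 other pathway genes. The line carried promoter H3K4me3 at 9 of 10 β cell marker genes in both treatments, with Ins1 lacking it, and at 2 of 10 markers of other cells, Gcg and Col1a1. Values refer to the highest-ranked peak within 3 kb of a gene, and a peak's rank rests on its −log10 p-value, which in these lists is the lower of the replicates' values.

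The H3K4me3 peaks of the 46 genes were wider than those of most other genes. Under DMSO their median width was 4080 bp, with a range of 1219 to 17317 bp, compared with a median of 2572 bp in other genes with a promoter peak and 3486 bp in the 72 other pathway genes. Under JNKi the medians were 3996, 2639 and 3474 bp. In total, 40 of the 46 under DMSO and 39 under JNKi were wider than the median of other genes. A width of at least 4 kb was reached by 24 of the 46 (52.2%) under DMSO, compared with 13.4% of other genes, and by 22 (47.8%) under JNKi, compared with 14.1%. Median widths of the replicate intervals were 4036 and 3900 bp under DMSO and 3908 and 3853 bp under JNKi, so that replicates differed by far less than the distance to the other genes.

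The extra width lay mainly downstream of the TSS. Under DMSO the peaks of the 46 genes reached a median of 1144 bp upstream and 2950 bp downstream of the representative TSS, compared with 843 and 1610 bp in other genes. The downstream part was the longer in 41 of the 46 genes under DMSO and 42 under JNKi (79.2% and 78.9% of other genes). In 9 of the 46 (19.6%) the peak also covered the TSS of a neighbour, compared with 21.0% of other genes under DMSO. These were Creld2 (with Alg12), Ddit3 (Mbd6), Derl2 (Mis12), Dnajb11 (Tbccd1), Hsp90b1 (Ttc41), Manf (Rbm15b), Pdia3 (Catsper2), Ppp1r15a (Plekha4) and Sec61b (Alg2).

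**Figure D2:**
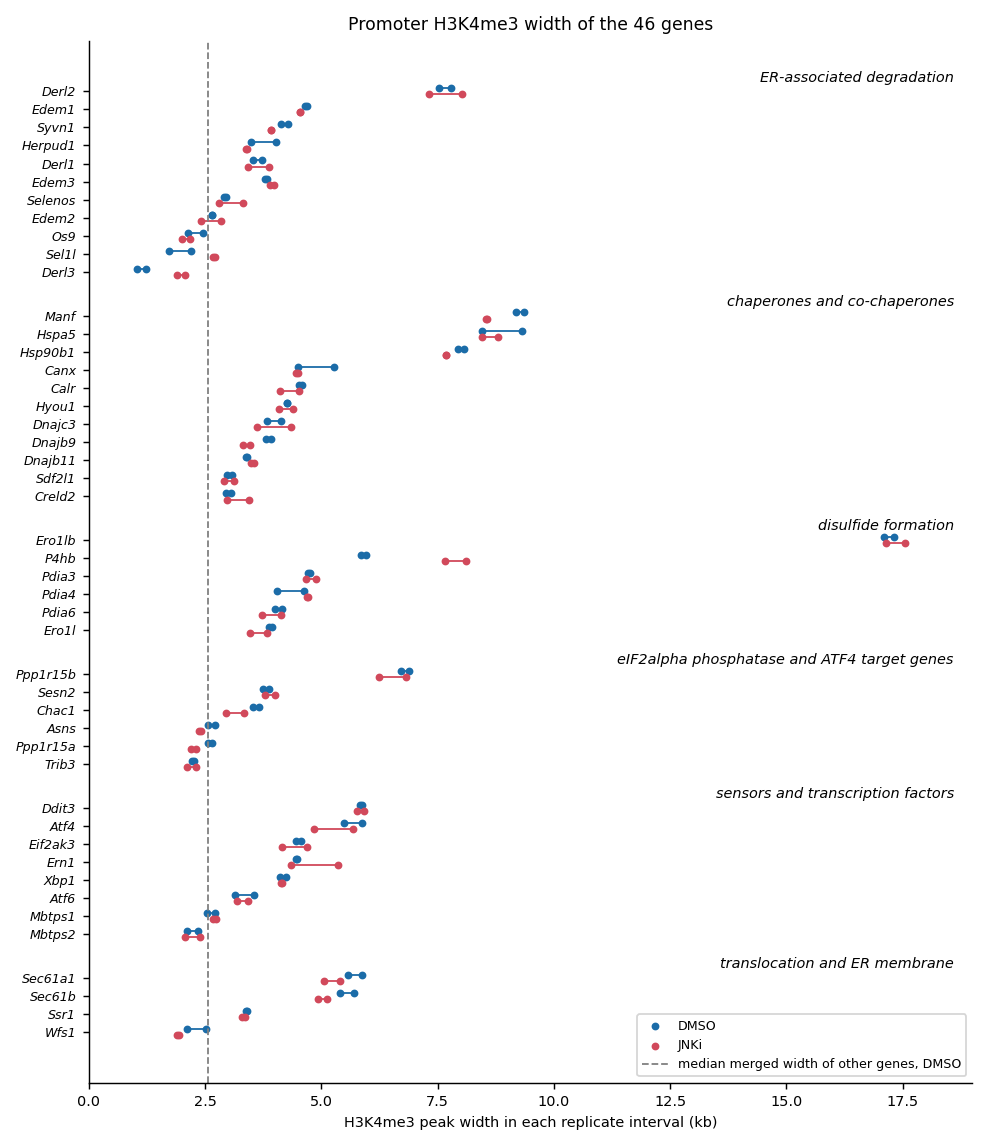
Width in kb (x axis) of the promoter H3K4me3 peak of each of the 46 genes, grouped by role, with a point for each replicate interval under DMSO (blue) and JNKi (red) and the dashed line at the DMSO median of other genes, 2572 bp. Ero1lb stands alone near 17 kb, followed under DMSO by Manf, Hspa5, Hsp90b1 and Derl2 and under JNKi by Hspa5, Manf, P4hb and Derl2.

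The widest peak in both treatments was that of Ero1lb, the ER oxidoreductin of the pancreas, which supplies oxidising equivalents for disulfide formation. Its replicate intervals measured 17317 and 17096 bp under DMSO and 17545 and 17132 bp under JNKi, and the peak ran 15974 bp into the gene under DMSO. Next in the order under DMSO came Manf, with 9363 and 9188 bp under DMSO and 8532 and 8559 bp under JNKi. Hspa5, which encodes BiP, the principal ER Hsp70 chaperone, had 8451 and 9314 bp under DMSO and 8797 and 8446 bp under JNKi. The whole Hspa5 gene is 5578 bp long, and the merged DMSO peak reached 7331 bp downstream of its TSS, past the end of the gene. Hsp90b1 followed with 7944 and 8075 bp under DMSO and 7683 and 7674 bp under JNKi. The fifth was Derl2, a Derlin, with 7784 and 7536 bp under DMSO and 8035 and 7312 bp under JNKi. Under JNKi the merged widths were 8797 bp for Hspa5, 8592 bp for Manf, 8105 bp for P4hb, 8035 bp for Derl2 and 7683 bp for Hsp90b1, so the order differed.

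At the other end, Derl3 had the narrowest peak under DMSO, with 1219 and 1041 bp under DMSO and 2070 and 1891 bp under JNKi, where the narrowest merged peak was that of Wfs1 (1944 bp, compared with 2070 bp for Derl3). The next under DMSO were Sel1l, the adaptor of the degradation ligase, with 2204 and 1719 bp under DMSO, and Trib3 with 2220 and 2265 bp. Mbtps2 had 2103 and 2352 bp, and Os9, a lectin of degradation, had 2450 and 2123 bp. The Derlins thus differed from each other, with Derl2 and Derl3 near the ends of the range and Derl1 (3713 and 3532 bp) between them.

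By role, the disulfide formation genes had the widest peaks under DMSO, with a median of 4690 bp over 6 genes, and the eIF2α phosphatase and ATF4 target genes the narrowest, with 3254 bp over 6 genes. The medians of the other roles were 4560 bp for 4 translocation and ER membrane genes, 4378 bp for 8 sensors and transcription factors, 4295 bp for 11 chaperones and co-chaperones, and 3823 bp for 11 genes of ER-associated degradation. Ranges overlapped between all roles, for example 3993 to 17317 bp for disulfide formation and 2337 to 6876 bp for the ATF4 targets. The 13 genes with an ERSE or ERSE-II had a median width of 4272 bp and the 33 without one 3919 bp.

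Among sensors and factors, Eif2ak3 had 4554 and 4450 bp under DMSO and 4689 and 4152 bp under JNKi. Ern1 had 4461 and 4475 bp, then 5368 and 4346 bp. Atf6 had 3554 and 3146 bp, then 3419 and 3192 bp. Their groups overlapped. Xbp1 had 4113 and 4242 bp under DMSO and 4127 and 4150 bp under JNKi. Atf4 had 5483 and 5870 bp, then 5690 and 4835 bp. Ddit3 had 5865 and 5837 bp, then 5774 and 5916 bp. These 3 genes of transcription factors also overlapped between treatments.

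The rank of the peaks was high as well. The median percentile within the H3K4me3 list, where 100 is the strongest peak, was 87.8 for the 46 genes under DMSO and 86.4 under JNKi, compared with 70.2 and 70.1 for other genes. In both treatments, 35 of the 46 lay above the median of other genes. The highest decile held 21 of the 46 (45.7%) under DMSO, compared with 17.7% of other genes, and 19 (41.3%) under JNKi, compared with 17.6%. The 72 other pathway genes lay closer to the list, with median percentiles of 81.2 under DMSO and 84.0 under JNKi and 37.5% and 29.6% of genes in the highest decile. The highest was Ppp1r15b, at rank 2 of 19372 peaks under DMSO, where its replicates had −log10 p of 834 and 807. It was followed by Sec61a1, the channel subunit of the translocon, at rank 22, P4hb, protein disulfide isomerase, at rank 28, Syvn1, the degradation ligase HRD1, at rank 45, and Sesn2 at rank 184.

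**Figure D3:**
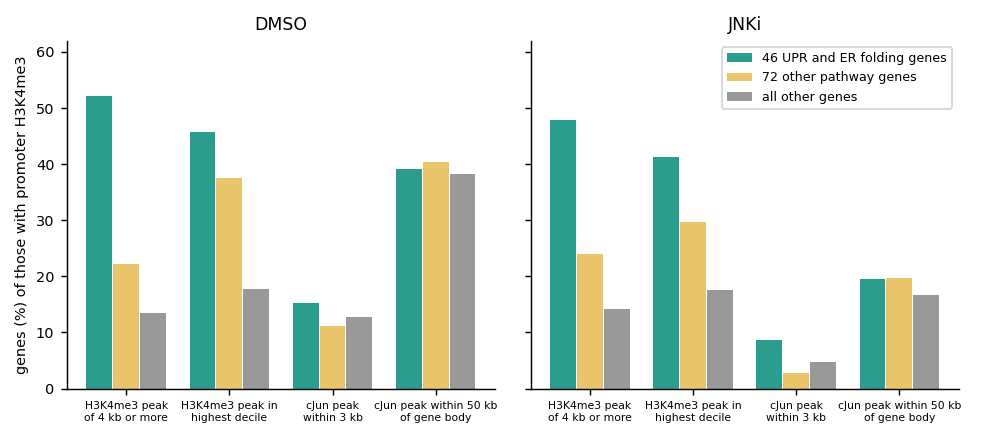
Share of genes (y axis, %, of those with promoter H3K4me3) with a wide or highly ranked H3K4me3 peak or a cJun peak nearby, under DMSO and JNKi, for the 46 genes, the 72 other pathway genes (71 under JNKi) and all other genes, which include the 72. The list stands above all other genes in the H3K4me3 shares (52.2% compared with 13.4% at 4 kb under DMSO), while the cJun shares lie closer together.

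The lowest ranks under DMSO went with replicates that did not match. They were Wfs1 (percentile 1.20), the ER membrane protein wolframin, Ero1lb (2.69), Manf (3.07), Atf4 (3.60) and Dnajb9 (19.7), the co-chaperone ERdj4. Wfs1 had a −log10 p of 328 in the first replicate and 3.72 in the second. Ero1lb had 521 and 4.25, and Dnajb9 450 and 11.2. Manf had 4.42 and 290, and Atf4 4.61 and 225. The low value was therefore in the second replicate for 3 genes and in the first for the other 2. Their replicate intervals differed in width by at most 16.3% of the second replicate's width.

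Under JNKi the replicate values differed by over 10-fold in Derl3 (99.5 and 5.87), Ssr1 (8.95 and 453), P4hb (780 and 5.80), Hspa5 (434 and 6.91), Hsp90b1 (529 and 13.7) and Ero1lb (670 and 6.87). The widths of their replicate intervals differed by at most 9.47% of the second replicate's width. Derl2 was low in both JNKi replicates (6.56 and 12.3) after 435 and 359 under DMSO, with a width that stayed near 8 kb. Such a difference between replicates was found in 5 of the 46 genes (10.9%) under DMSO and 6 (13.0%) under JNKi, compared with 2.77% and 2.57% of other genes. Among other genes it was found in 8.64% of peaks of 4 kb or more and 1.86% of narrower peaks under DMSO. In the 46 genes, 3 of the 24 peaks of at least 4 kb had it under DMSO and 4 of the 22 under JNKi. The remaining genes with such a difference had narrower peaks. Apart from Derl3, a low rank of the genes with such a difference does not stand for a weak mark in both replicates. Derl3 under JNKi stood at percentile 41.8 by its first replicate and 5.71 by its second, both below the median of other genes (70.1). Only Ero1lb was among the genes with such a difference in both treatments. Without them, a choice made after seeing the data, the median percentile was 90.4 over 41 genes under DMSO and 89.7 over 40 under JNKi, compared with 71.1 and 70.9 in other genes.

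**Figure D4:**
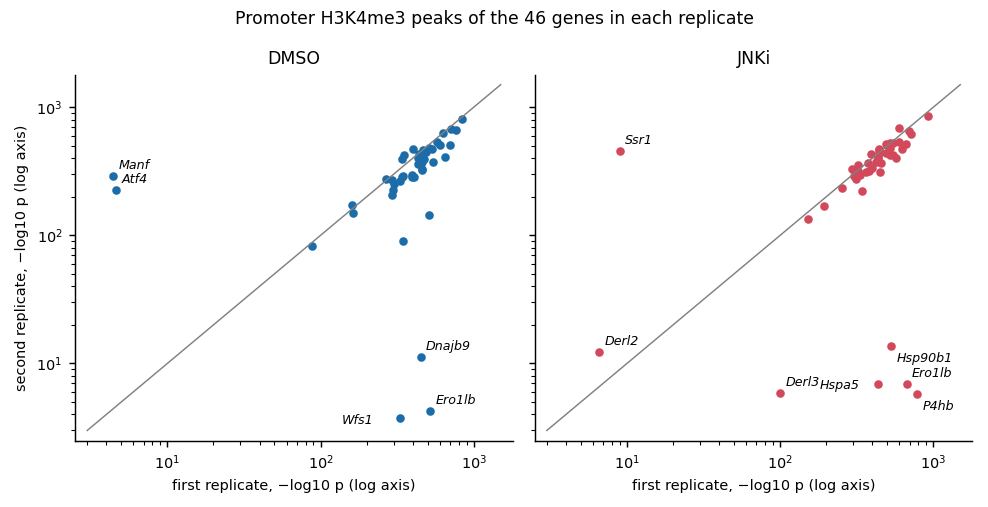
−log10 p-value of the promoter H3K4me3 peak of each of the 46 genes in the first replicate (x axis, log scale) and the second (y axis, log scale), under DMSO and JNKi, with the line of equality. Named genes differ over 10-fold between replicates, and Derl2 is named for its low values in both.

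The next comparison asked whether JNK inhibition altered the width of these peaks. Replicate interval widths were compared with limma on the log2 scale over 11257 pairs of overlapping DMSO and JNKi promoter peaks, and 137 pairs (1.22%) passed an adjusted p of 0.05. None of the 46 genes passed limma's test, 8 of them had an unadjusted p under 0.05, and 9.44% of all pairs did. The median log2 difference (JNKi minus DMSO) was −0.048 over the 46 genes and −0.016 over all pairs, and it was below 0 in 35 of the 46 genes and 57.6% of pairs. Widths were centred on each column's median, which was 2394 and 2442 bp under DMSO and 2520 and 2406 bp under JNKi. A difference just below 0 therefore need not be a narrower peak in bp, as in Ero1lb (−0.02), whose JNKi intervals were the wider. With 2 replicates in each group, the median standard error for these genes was 0.06, so that small differences were not detectable.

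The largest differences towards wider peaks under JNKi were in 3 genes. Derl3 had a log2 difference of 0.79 ± 0.10 (SE, limma adjusted p = 0.0583). In P4hb the widths were 5852 and 5951 bp under DMSO and 8105 and 7654 bp under JNKi, a log2 difference of 0.39 ± 0.05 (SE, limma adjusted p = 0.0682), and its merged peak reached 3912 bp downstream of the TSS under DMSO and 5709 bp under JNKi. Sel1l had 2204 and 1719 bp, then 2706 and 2665 bp, a log2 difference of 0.44 ± 0.14 (SE, limma adjusted p = 0.436). In all 3 genes both JNKi replicates exceeded both DMSO replicates, yet none passed the test. The peaks of P4hb and Derl3 under JNKi were also among those whose replicates differed in −log10 p. The next differences in this direction were smaller, at 0.09 for Pdia4 and 0.09 for Ern1.

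The largest differences towards narrower peaks were in Wfs1, with 2101 and 2509 bp under DMSO and 1938 and 1895 bp under JNKi (log2 difference −0.29 ± 0.09, SE, limma adjusted p = 0.443). Ppp1r15a, the inducible eIF2α phosphatase subunit GADD34, had 2571 and 2658 bp, then 2308 and 2198 bp, a log2 difference of −0.24 ± 0.05 (SE, limma adjusted p = 0.243). Chac1 (−0.22), Dnajb9 (−0.22) and Sec61b (−0.17) followed, and in all 5 of these genes both JNKi replicates lay below both DMSO replicates. The DMSO peaks of Wfs1 and Dnajb9 were among those whose replicates differed in −log10 p. By the widths in bp, without the centring used for the log2 differences, the replicates of the treatments did not overlap in 20 of the 46 genes. These were wider in 6 and narrower in 14. The share over all pairs was 35.6% (wider in 20.4%, narrower in 15.2%).

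The positions of the promoter elements were also compared with the extent of the mark. Of the 22 matches to ERSE, ERSE-II or CARE in the 46 promoters, 22 were inside the promoter H3K4me3 peak under JNKi and 20 under DMSO. The remaining 2 were those of Derl3, whose peak began 168 bp upstream of the TSS under DMSO and 884 bp upstream under JNKi. The peaks of the 46 genes reached a median of 1144 bp upstream under DMSO and 1136 bp under JNKi. They therefore covered the whole searched stretch in nearly every gene, whatever its sequence. These counts thus follow from the width of the peaks and do not set the elements apart from other sequence there.

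The cJun peaks were then located. A cJun peak lay within 3 kb of a TSS in 7 of the 46 genes (15.2%) under DMSO, namely Atf4, Ddit3, Derl1, Edem1, Ern1, Ero1lb and Sesn2. The share was 7.89% of all other genes and 12.7% of those with promoter H3K4me3. Under JNKi it was 4 of the 46 (8.70%), namely Ddit3, Ern1, Ero1lb and Hsp90b1, compared with 2.89% and 4.70%. Ddit3, Ern1 and Ero1lb had a peak in both lists, which is 3 of the 7 genes under DMSO and 3 of the 4 under JNKi. This is 6.52% of the 46, compared with 2.78% of the 72 other pathway genes. The share was 1.96% of all other genes, which include those without promoter H3K4me3. At these counts the share is close to that of other H3K4me3-marked genes under DMSO, and a few genes decide it under JNKi.

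The cJun list was longer under DMSO (4960 peaks) than under JNKi (1632 peaks). Among the 1632 highest-ranked DMSO peaks, those of 3 of the 46 genes remained at promoters (Ddit3, Ern1 and Ero1lb), compared with 3.03% of other genes, so the counts of 7 and 4 genes cannot be told apart from the length of the lists. The peaks of the other 4 DMSO genes stood at rank 3076 or below. None of the promoter peaks near the 46 genes had an irreproducible discovery rate (IDR), an estimate of failure to replicate, of 0.05 or less in either list. At this IDR only 0.918% of other genes under DMSO and 0.632% under JNKi kept a promoter cJun peak.

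Around Ddit3 the DMSO peak of 1444 bp had its summit 402 bp upstream of the TSS, at rank 909 with an IDR of 0.131, and its replicates had −log10 p of 14.3 and 9.28. Under JNKi 2 peaks lay in the same stretch, with summits 417 and 1392 bp upstream, and the first had values of 9.43 and 11.3 at rank 324 (IDR 0.0850). The other summit was nearer to the TSS of Mbd6, which shares this promoter. The CARE of Ddit3 shown above was inside the cJun peak in both lists, while its AP-1 letters lay 45 bp beyond the peak's edge under DMSO and 38 bp under JNKi. The sequence at the DMSO summit holds no AP-1 or CRE match within 100 bp.
Ddit3, DMSO list, chr10:127290342-127290402, plus strand: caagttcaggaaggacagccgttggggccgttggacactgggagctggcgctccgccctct

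In Ern1 the peak lay inside the gene, with the summit 2393 bp downstream of the TSS under DMSO (11.2 and 24.4, rank 576, IDR 0.0833) and 1899 bp downstream under JNKi (10.7 and 7.17, rank 625, IDR 0.255). In Ero1lb the summit was 211 bp upstream under DMSO (7.48 and 11.9, rank 1569) and 232 bp under JNKi (3.77 and 10.5, rank 1471), and the ERSE of Ero1lb lay inside the peak in both lists. Apart from Ddit3 and Ero1lb, no match to ERSE, ERSE-II or CARE in these promoters was inside a cJun peak.

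The single-list peaks were weaker. Atf4 had 2 under DMSO, 622 bp upstream (5.99 and 4.72) and 682 bp downstream (16.8 and 4.64). The peaks of Sesn2 (5.28 and 6.31), Derl1 (3.68 and 7.97) and Edem1 (3.59 and 7.07) lay 1403, 1610 and 1062 bp downstream of the TSS. Under JNKi the peak near Hsp90b1 (8.95 and 3.60) had its summit 409 bp upstream, and 74 bp from the TSS of the neighbour Ttc41. No cJun summit within 3 kb of the 46 genes had AP-1 letters within 100 bp, and all of these peaks overlapped H3K4me3.

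**Figure D5:**
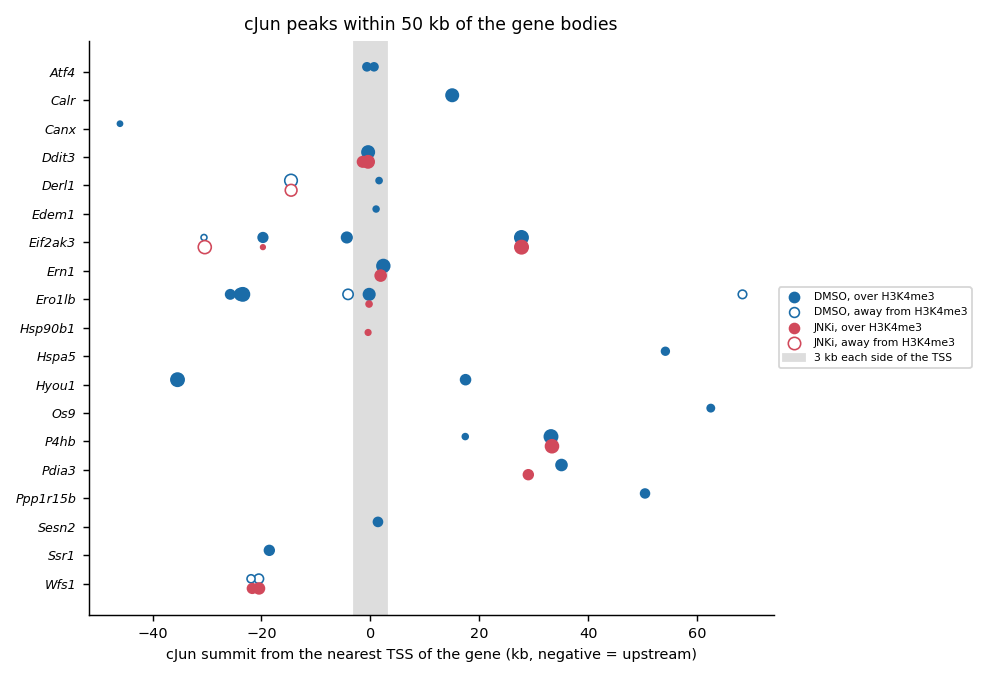
Summits of cJun peaks within 50 kb of the gene bodies of the 46 genes, by distance from the nearest TSS of the gene (x axis, kb, negative upstream), under DMSO (blue) and JNKi (red). Larger points are ranked higher in their list, filled points overlap H3K4me3 of the same treatment, and the grey band marks 3 kb on each side of the TSS.

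Within 50 kb of the gene body, 18 of the 46 genes (39.1%) had a cJun peak under DMSO, compared with 28.3% of other genes and 38.2% of those with promoter H3K4me3. Under JNKi the count was 9 (19.6%), compared with 12.2% and 16.6%. The shares of the 46 genes thus lay near those of other H3K4me3-marked genes. The 18 genes were near 31 peaks, of which 16 had a TSS of one of the 46 genes as their nearest and 10 were overlapped by a JNKi peak. Under JNKi there were 13 peaks, 7 with such a nearest TSS and 11 overlapped by a DMSO peak. AP-1 letters stood within 100 bp of 3 of the 31 summits and 3 of the 13, compared with 496 of all 4960 summits and 197 of all 1632.

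Eif2ak3, the gene of PERK, had the highest-ranked cJun peak of the 46 genes in both lists. This peak, inside the gene with its summit 27766 bp downstream of the TSS, had a −log10 p of 33.1 and 18.7 under DMSO (rank 150, IDR 0.00280) and 29.6 and 23.5 under JNKi (rank 39, IDR 0.00115). It overlapped H3K4me3 in both treatments and held an AP-1 match 36 bp from the DMSO summit. About 30 kb upstream a second peak had 9.07 and 3.67 under DMSO and 14.9 and 22.1 under JNKi (rank 125, IDR 0.00992), where an AP-1 match lay 31 bp from the JNKi summit. Its DMSO summit had no AP-1 match within 100 bp, and the nearest TSS was that of Rpia. Further DMSO peaks were 4317 and 19728 bp upstream, and the latter was overlapped by a JNKi peak of low rank (3.10 and 8.52). The peak 4317 bp upstream lay just outside the 3 kb window.

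Away from the promoters, 2 more of the 46 genes had a distal peak with AP-1 letters at the summit and an IDR under 0.05. The DMSO peak 23421 bp upstream of Ero1lb (17.9 and 15.9, rank 223, IDR 0.0142) had its AP-1 match 88 bp from the summit and was not overlapped under JNKi. Its nearest TSS was that of Edaradd. A peak about 33 kb beyond the TSS of P4hb had 20.2 and 17.3 under DMSO (IDR 0.00869) and 13.5 and 19.2 under JNKi (IDR 0.0139). The AP-1 match of the P4hb peak lay 31 bp from the JNKi summit, and none lay within 100 bp of the DMSO summit. Its nearest TSS was that of Gcgr. These AP-1 sites are shown in capitals, in the direction of the named gene, because they are the AP-1 letters at the summits with an IDR under 0.05 near the 46 genes.
Eif2ak3, DMSO list, chr6:70872255-70872311, plus strand: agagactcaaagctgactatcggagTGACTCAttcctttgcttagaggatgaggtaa
Eif2ak3, JNKi list, chr6:70814103-70814159, plus strand: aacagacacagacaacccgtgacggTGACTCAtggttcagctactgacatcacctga
Ero1lb, DMSO list, chr13:12542353-12542393, plus strand: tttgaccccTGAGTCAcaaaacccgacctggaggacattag
P4hb, JNKi list, chr11:120539468-120539524, minus strand: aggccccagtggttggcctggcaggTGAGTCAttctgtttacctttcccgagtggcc

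Wfs1 had a pair of upstream peaks in both lists, with DMSO summits 20482 bp (5.55 and 6.79) and 21914 bp (5.55 and 4.74) from its TSS. The JNKi summits were at 20447 bp (6.98 and 11.3) and 21688 bp (5.76 and 6.16), and these overlapped H3K4me3 while the DMSO pair did not. Hspa5 had 1 peak in the window, at the TSS of Fbxw2, and the nearest cJun peak to the AP-1 letters in its promoter was 54152 bp away under DMSO. No cJun peak lay within 50 kb of Xbp1 or Atf6 in either list.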

How the data were processed

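Per the labels and the study's methods, CUT&RUN libraries from Min6 cells were trimmed with Trimmomatic, aligned to GRCm38 with Bowtie2 2.4.2, filtered with SAMtools, and peaks were called by the authors for each replicate with MACS2 2.2.7.1 against IgG. The 4 lists deposited by the authors pair the 2 replicates of a group by IDR and give, for each merged peak and each replicate, coordinates and a −log10 p-value. The authors' score columns hold −log10 of the local and global IDR and a scaled form of it. The signal and q-value columns held only a placeholder, so peaks were ranked by −log10 p. Reads and IgG libraries were not used here, so depth is unknown. All deposited peaks were used. CUT&RUN peak width depends on coverage and on the caller's joining of nearby signal, and values were ranked only within a list.

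The 46 genes and the other lists were chosen with earlier results of these data known. TSSs were those of GENCODE vM21 basic transcripts, with 1 gene ID per symbol. The representative transcript was the APPRIS principal one. Widths were compared with limma 3.58.1 (R 4.3.3) on log2 replicate intervals, centred on each column's median, with Benjamini-Hochberg adjustment over all 11257 pairs. Replicate columns carry no number and are called first and second. Genes named were those with a cJun peak within 3 kb, the 5 at each end of width, rank and width difference, Hspa5, Ern1, Eif2ak3, Atf6, Xbp1, Atf4, Ddit3 and those with an ERSE, ERSE-II or CARE, and others named were chosen after their values were seen. Motifs were searched on both strands with Python 3.11.15 and pysam 0.24.0. Of the 46 genes, 40 had an entry in RefSeq's promoter table, and 36 of their TSSs lay within 100 bases of the TSS used. Window, motif and width steps were tested on simulated data. Alternatives covered IDR, distances, transcripts, list length, replicate values, widths and sequence windows. All cJun peaks within 50 kb of these genes are counted, but not every peak is described here.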

Additional observations from a re-analysis of the deposited data

How the results depend on the processing

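Each list is 1 pair of replicates, so counts of peaks near genes have no replicate error and were not tested between treatments. Of 100 alternative values for 22 results, 69 stayed close to the reported value and 31 moved. An IDR of at most 0.05 or 0.01 left 0 genes with a promoter cJun peak in both treatments (0.918% and 0.507% of other genes under DMSO, 0.632% and 0.291% under JNKi), and 4 and 3 genes within 50 kb under DMSO (4.21% and 2.28% of other genes) and 2 and 1 under JNKi (2.74% and 1.28%). At an IDR of at most 0.05, 34 and 36 of the 46 genes kept a promoter H3K4me3 peak, compared with 53.9% of other genes in both treatments. Of the peaks of the 46 genes over this limit, 6 of 12 under DMSO and 3 of 10 under JNKi lay above the 90th percentile. Over the whole lists, 61.1% of the 193 highest-ranked H3K4me3 peaks under DMSO exceeded it, compared with 27.0% of all. Under JNKi the shares were 77.4% of the 190 highest-ranked and 24.4% of all. A high IDR in these lists is therefore not by itself a sign of a weak peak. As many DMSO peaks as in the JNKi list gave 3 genes within 3 kb and 8 within 50 kb (3.03% and 12.7% of other genes). Counting only peaks whose nearest TSS is the gene's gave 10 genes under DMSO and 5 under JNKi (12.9% and 5.11%). Whole peaks held AP-1 letters in 11 of 31 and 6 of 13 peaks (32.6% and 35.0% of all peaks of the lists).

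The median width was 3838 bp (DMSO) and 3944 bp (JNKi) at an IDR of at most 0.05, 4062 bp (JNKi) as summed width, 3900 bp (DMSO, second replicate), and 3908 and 3853 bp in the JNKi replicates, with other genes at 2443 to 2753 bp under every setting. The median rank percentile under DMSO was 90.8 with the first replicate's value. Settings added after seeing the data gave 90.7 with the higher replicate value and 90.4 without genes whose replicates differed over 10-fold. Under JNKi it was 89.1 at an IDR of at most 0.05 and 89.7 without those genes. In the width test, rank-normal scores called 1 of the 46 genes, Derl3 (limma adjusted p = 0.0212), and an IDR of at most 0.05 in both lists called 80 pairs. Leaving out a replicate column in turn called 15 to 24 pairs and 0 of the 46 genes, with the lone sample assumed to vary like the others. No paired analysis was possible because the replicate columns carry no numbers. The causes were not tested.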
